A study of Mus musculus with 10 samples.

Results

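The contractile apparatus of smooth muscle was followed through 10 of its genes in RNA from mouse colorectum, where smooth muscle forms the muscle coat of the bowel wall, the thin muscle layer of the mucosa and the walls of blood vessels. The genes were chosen by name, as Acta2, Actg2, Myh11, Tagln, Des, Cnn1, Myl9, Smtn, Lmod1 and Synpo2, and all 10 were among the 23284 features measured. They were compared over 5 groups of 2 libraries each, all from BALB/c mice 7 weeks old. In 4 groups the mice had been given 2% dextran sodium sulfate (DSS), a sulfated polysaccharide that provokes colitis, together with tail vein injections of a miRNA carried by super carbonate apatite (sCA), a mineral carrier for nucleic acids. The injections carried miR-29a with tissue taken on day 4, miR-29b with tissue taken on day 4, or a negative control called NC-miR, in mice sampled on day 4 or on day 2. The mice of the fifth group, called normal, had received neither DSS nor injections, so the effects of DSS, of the injections and of the day of sampling cannot be told apart in any comparison with them. Injections were given on days 1 to 3 per the labels, also for the NC-miR group sampled on day 2. Nothing in the labels says whether the 2 libraries of a group came from separate mice, so p-values measure only the spread between these libraries, which may be technical.

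Smooth muscle shortens when thin filaments of actin slide over thick filaments of myosin. Calcium entering the cell activates a kinase that phosphorylates the regulatory light chain of myosin, and a phosphatase reverses this. Thin filaments are anchored in dense bodies, which intermediate filaments of desmin link into a network. Transcription of many of these genes is driven by serum response factor (SRF) with its partners of the myocardin family, which bind a sequence element called the CArG box. In the colon this muscle provides peristalsis, and altered contraction is a known feature of colitis. The miR-29 family is best known for its action on transcripts of the extracellular matrix.

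The sequences of the injected miRNAs are shown because they decide which transcripts can pair with them, in this case with a seed that both share. The labels do not name the arm, and the 3p arm that carries the miR-29 seed is printed from RefSeq (GRCm38.p6). Capitals mark the seed, bases 2 to 8 counted from the 5′ end.
mmu-miR-29a-3p: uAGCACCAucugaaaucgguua
mmu-miR-29b-3p: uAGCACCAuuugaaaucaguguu
The first is encoded at chr6:31062673-31062694 on the minus strand. The second is encoded in duplicate, at chr6:31063025-31063047 on the minus strand and at chr1:195037091-195037113 on the plus strand. Over the 22 positions that both hold, they differed at 4, by the substitutions C10U, G18A, U21G and A22U from miR-29a to miR-29b, all outside the seed. The 7 bases complementary to the seed, TGGTGCT, were found in the 3′ UTR of 0 of the 10 contractile genes (longest coding transcript of each gene, GENCODE). Over all 20619 genes with an annotated 3′ UTR the share was 11.8%. Among genes with a 3′ UTR of a length like that of the member, the share ran from 0.4% for Actg2, whose 3′ UTR has 80 bases, to 28.3% for Synpo2, whose 3′ UTR has 3200 bases. A missing match says only that these letters are not in these windows.

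The deposited values are on a log2 scale, each relative to a baseline of the same gene, so they show how a gene varied over libraries and not how strongly it was expressed against another gene. In all 10 libraries all 10 members lay above the floor to which low values had been raised. The libraries had 12680 to 12940 of 23284 features above that floor, their read depth is unknown because the files give no counts, and the colon epithelium genes Epcam, Krt8 and Vil1 lay above the floor in all 10. NC-miR day 4 replicate 1 stood apart in genes of squamous epithelium, such as Krt14 (log2 value 6.05, at most 0.19 in the other libraries) and Krt5 (3.89, at the floor elsewhere), while Trp63, another defining gene of that cell type, was at the floor in all libraries. In tissue RNA, fewer cells of a type and less RNA per cell cannot be told apart. Gene positions below are on GRCm38 (GENCODE).

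No contractile gene differed between any of the groups by limma, in any of 8 comparisons or in the F test over the 5 groups (adjusted p 0.424 to 0.74 over the 10 genes). That F test called 49 of the 13051 features tested, 0.375%, and 0 members had an unadjusted p under 0.05 in it, beside 14.4% of features. What all members shared was a low value in a single library. In NC-miR day 4 replicate 2, 8 of 10 members had their lowest value of all libraries and all 10 had their lowest or second lowest. The same library held the lowest value of 13.8% of all features tested, and the lowest or second lowest of 26.3%. The members' mean there, each gene centred on its own mean over the 10 libraries, was -0.47 (members from -0.73 to -0.19). In the other 9 libraries it lay between -0.17 in normal replicate 2 and 0.13. Normal replicate 2 held the lowest or second lowest value of 5 of 10 members, beside 18.8% of all features.

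**Figure D1:**
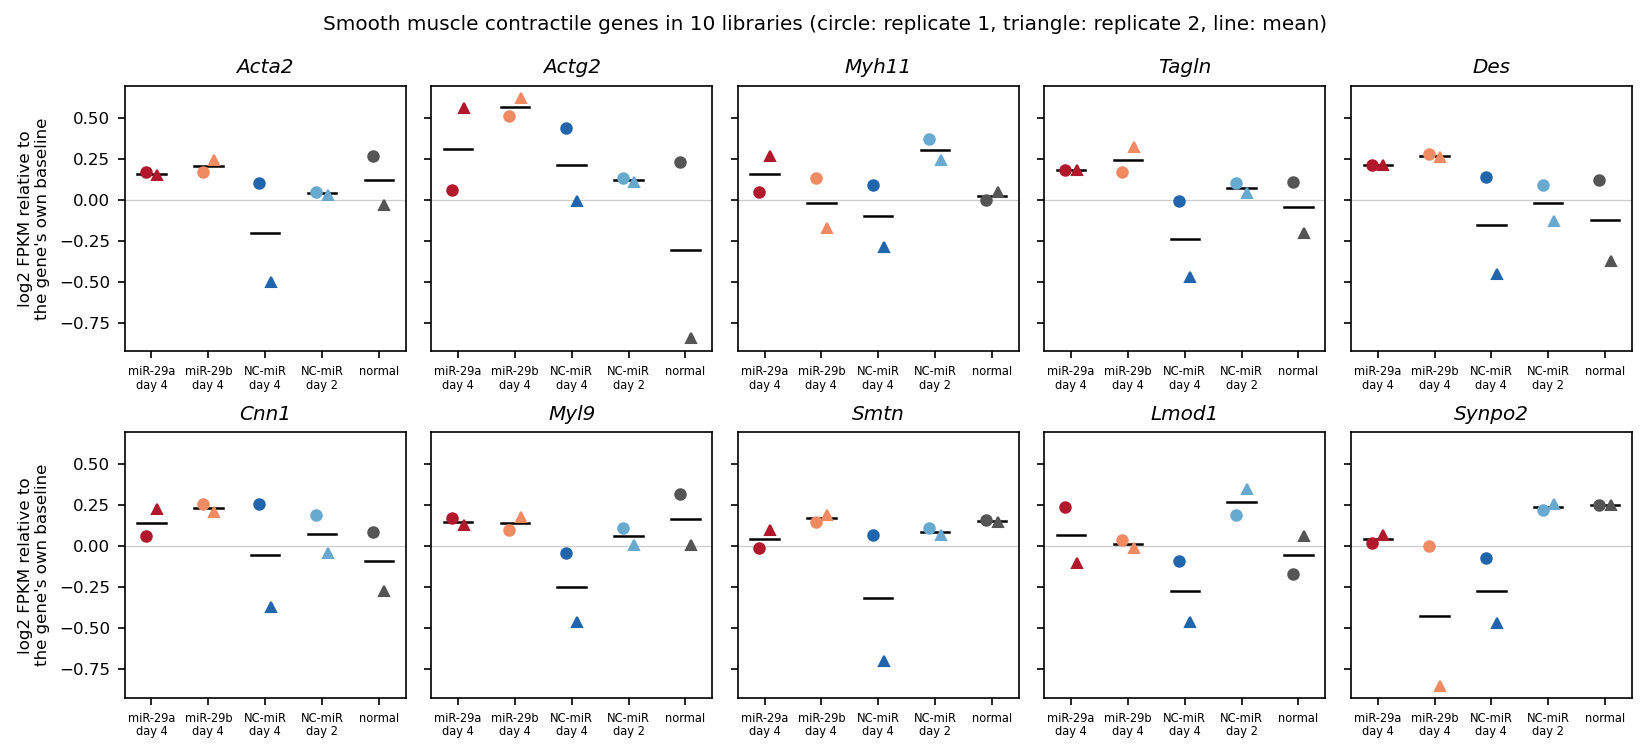
Log2 value of each of the 10 contractile genes relative to its own baseline (vertical axis) in the 5 groups (horizontal axis), with a circle for replicate 1, a triangle for replicate 2 and a line for the mean of each group. The triangle of NC-miR day 4 is the lowest point for 8 of the 10 genes, while for Actg2 the lowest point is normal replicate 2 (-0.84) and for Synpo2 it is miR-29b day 4 replicate 2 (-0.85).

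The thin filament is built from smooth muscle actins, of which Acta2 (chr19:34241090-34255590, minus strand) encodes the alpha form prominent in vessels and Actg2 (chr6:83512905-83536265, minus strand) the gamma form typical of the gut wall. Acta2 had log2 values of 0.17 and 0.15 in miR-29a day 4 libraries, 0.17 and 0.24 in miR-29b day 4 libraries, 0.10 and -0.50 in NC-miR day 4 libraries, 0.05 and 0.03 in NC-miR day 2 libraries, and 0.27 and -0.03 in normal libraries. Apart from NC-miR day 4 replicate 2, its libraries lay within 0.30 of each other. Actg2 had log2 values of 0.06 and 0.56 in miR-29a day 4 libraries, 0.51 and 0.62 in miR-29b day 4 libraries, 0.44 and -0.01 in NC-miR day 4 libraries, 0.13 and 0.11 in NC-miR day 2 libraries, and 0.23 and -0.84 in normal libraries. It was the most variable member, with a range of 1.45, and normal replicate 2 alone lay far below the rest. The sarcomeric actin Acta1 was lowest in that library as well, at -1.46. Of the other striated muscle genes, Mylpf was lowest there too (-0.46), while Ckm stood at 0.14. In all, 3 of the 5 striated muscle genes tested were lowest in that library, beside 10.3% of all features. The coding sequences of Acta2 and Actg2 are 84.2% identical (952 of 1131 aligned bases, longest identical run 29 bases). How reads were shared between them was not tested.

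The thick filament is built on Myh11 (chr16:14194535-14291372, minus strand), the smooth muscle myosin heavy chain, and Myl9 (chr2:156775420-156781658, plus strand) encodes the regulatory light chain whose phosphorylation switches contraction on. Myh11 had log2 values of 0.05 and 0.27 in miR-29a day 4 libraries, 0.13 and -0.17 in miR-29b day 4 libraries, 0.09 and -0.29 in NC-miR day 4 libraries, 0.37 and 0.24 in NC-miR day 2 libraries, and 0.00 and 0.05 in normal libraries. Its values in NC-miR day 2 libraries lay above those of NC-miR day 4 and of normal libraries without overlap. Myl9 had log2 values of 0.17 and 0.13 in miR-29a day 4 libraries, 0.10 and 0.18 in miR-29b day 4 libraries, -0.04 and -0.46 in NC-miR day 4 libraries, 0.11 and 0.01 in NC-miR day 2 libraries, and 0.32 and 0.01 in normal libraries. It was 1 of 4 members, with Tagln, Lmod1 and Synpo2, below 0 in both NC-miR day 4 libraries.

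Among the proteins that bind actin, Tagln (chr9:45929619-45936058, minus strand) encodes transgelin, which bundles actin, and Cnn1 (chr9:22099216-22109630, plus strand) encodes calponin, which holds back the activity of myosin on actin. Tagln had log2 values of 0.18 and 0.18 in miR-29a day 4 libraries, 0.17 and 0.32 in miR-29b day 4 libraries, -0.01 and -0.47 in NC-miR day 4 libraries, 0.10 and 0.04 in NC-miR day 2 libraries, and 0.11 and -0.20 in normal libraries. Its lowest values were those of NC-miR day 4 replicate 2 and normal replicate 2. Cnn1 had log2 values of 0.06 and 0.23 in miR-29a day 4 libraries, 0.26 and 0.21 in miR-29b day 4 libraries, 0.26 and -0.37 in NC-miR day 4 libraries, 0.19 and -0.04 in NC-miR day 2 libraries, and 0.09 and -0.27 in normal libraries. Its replicates lay 0.62 apart in NC-miR day 4, and the higher of that pair equalled the highest miR-29b library to 2 decimals.

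Smtn (chr11:3517523-3540612, minus strand) encodes smoothelin, a protein of contractile smooth muscle cells bound to actin, and Lmod1 (chr1:135324807-135368065, plus strand) encodes leiomodin, which starts new actin filaments. Smtn had log2 values of -0.01 and 0.10 in miR-29a day 4 libraries, 0.15 and 0.19 in miR-29b day 4 libraries, 0.07 and -0.70 in NC-miR day 4 libraries, 0.11 and 0.07 in NC-miR day 2 libraries, and 0.16 and 0.15 in normal libraries. It was the steadiest member outside NC-miR day 4 replicate 2. Lmod1 had log2 values of 0.24 and -0.10 in miR-29a day 4 libraries, 0.04 and -0.01 in miR-29b day 4 libraries, -0.09 and -0.46 in NC-miR day 4 libraries, 0.19 and 0.35 in NC-miR day 2 libraries, and -0.17 and 0.06 in normal libraries. NC-miR day 2 libraries lay above both those of NC-miR day 4 and those of normal mice for this gene, as they did for Myh11.

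The dense bodies and the cytoskeleton are represented by Des (chr1:75360329-75368579, plus strand), which encodes the intermediate filament protein desmin, and Synpo2 (chr3:123076519-123236149, minus strand), which encodes an actin-bundling protein also called myopodin. Des had log2 values of 0.21 and 0.21 in miR-29a day 4 libraries, 0.28 and 0.26 in miR-29b day 4 libraries, 0.14 and -0.45 in NC-miR day 4 libraries, 0.09 and -0.13 in NC-miR day 2 libraries, and 0.12 and -0.37 in normal libraries. As with Tagln, the lowest values were those of NC-miR day 4 replicate 2 and normal replicate 2. Synpo2 had log2 values of 0.02 and 0.07 in miR-29a day 4 libraries, 0.00 and -0.85 in miR-29b day 4 libraries, -0.07 and -0.47 in NC-miR day 4 libraries, 0.22 and 0.26 in NC-miR day 2 libraries, and 0.25 and 0.25 in normal libraries. Its replicates lay 0.85 apart in miR-29b day 4, the widest gap of its 5 groups. Genes on the opposite strand overlap Tagln, Des, Smtn, Lmod1 and Synpo2 in the annotation. The library kit marks strand, but the strand setting used when reads were assigned is not given in the sources used here, so reads of these pairs may not have been told apart.

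The groups with miR-29a and with miR-29b were each set against NC-miR on day 4, the comparison that asks what the injected miRNA changed. All 10 members were higher in miR-29a day 4 than in NC-miR day 4 (median log2 difference 0.35, range 0.10 to 0.42, against a median of 0.02 over all features tested). In miR-29b day 4, 9 of 10 were higher than in NC-miR day 4 (median 0.37, range -0.16 to 0.49, against 0.02 over all features), and Synpo2 was the exception. By limma 0 of 10 members passed in either comparison, beside 0.0% of all features in both. At an unadjusted p under 0.05 there were 2 members and 996 features (7.63%) for miR-29a, and 1 member and 1627 features (12.5%) for miR-29b. Both comparisons use the same NC-miR day 4 libraries.

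The members with the smallest p were Tagln and Myl9. Tagln averaged 0.18 in miR-29a day 4 and -0.24 in NC-miR day 4, a log2 difference of 0.42 ± 0.18 (SE, n = 2 each), or 1.34-fold, with a limma adjusted p of 0.65. The 95% interval of that difference ran from 0.01 to 0.83. In miR-29b day 4 Tagln averaged 0.25, which was 0.49 ± 0.18 above NC-miR day 4 (1.40-fold, limma adjusted p = 0.377). Myl9 was 0.40 ± 0.17 above NC-miR day 4 in miR-29a day 4 (limma adjusted p = 0.65) and 0.39 ± 0.17 in miR-29b day 4 (limma adjusted p = 0.401). The 4 libraries of the groups compared did not overlap for 5 of 10 members with miR-29a, all of them higher, where 22.4% of all features were higher and 19.3% lower without overlap. With miR-29b they did not overlap for 7 of 10 members, all higher, where the shares over all features were 22.7% higher and 19.5% lower.

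These differences depended on NC-miR day 4 replicate 2. With that library left out, the members' median was 0.07 for miR-29a and 0.11 for miR-29b against NC-miR day 4. With NC-miR day 4 replicate 1 left out instead, the medians were 0.57 and 0.60. Actg2, Cnn1 and Smtn turned to -0.13, -0.11 and -0.03 in miR-29a day 4 against NC-miR day 4 once that library was left out. Tagln and Myl9 were both at 0.19 in the same setting, the highest of the members. In miR-29b day 4 against NC-miR day 4 without that library, Tagln was highest at 0.26, and Synpo2 (-0.36), Myh11 (-0.11) and Cnn1 (-0.02) were below 0.

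**Figure D2:**
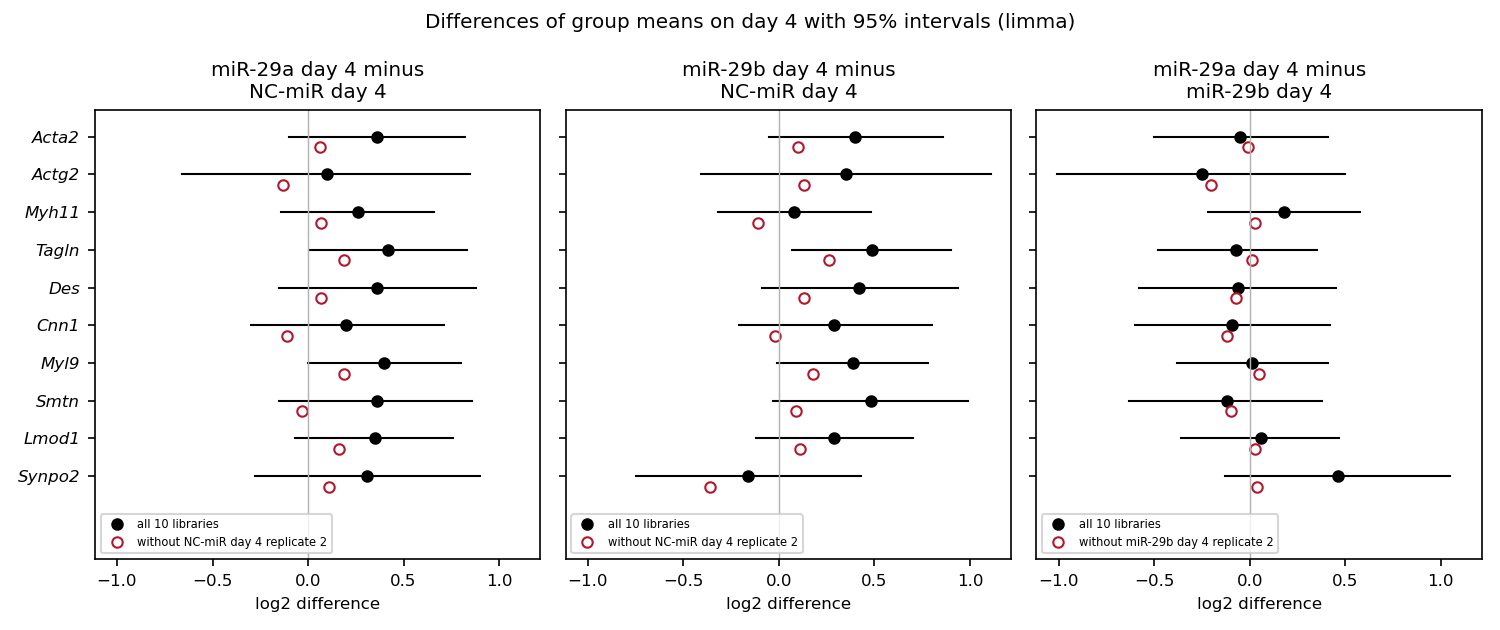
Log2 difference of group means on day 4 (horizontal axis) for each contractile gene (vertical axis), with filled points and 95% intervals from limma over all 10 libraries and open points for the fit without the library named in each legend. In the panels against NC-miR the open points move towards 0, with the medians at 0.07 and 0.11 in place of 0.35 and 0.37.

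Genes of other cell types were also low in that library. Marker lists are summarised by their median centred log2 value. The 8 pericyte and vascular muscle genes tested had -0.51 in NC-miR day 4 replicate 2 and from -0.08 to 0.24 in the other libraries. The 10 enteric neuron and glia genes had -0.48 there and from -0.15 to 0.30 elsewhere, and the 12 fibroblast genes -0.31 and from -0.12 to 0.26. Leukocyte genes stood at -0.41 there and from -0.35 (NC-miR day 2 replicate 1) to 0.46 elsewhere. Endothelial genes had -0.25 there and from -0.28 to 0.26 elsewhere, epithelial genes -0.18 and from -0.22 to 0.26, so neither was lowest in that library. The 4 genes tested of the interstitial cells of Cajal, the pacemakers of the gut, stood at 0.11. All features tested had a median of -0.02 in that library. In miR-29a day 4 against NC-miR day 4, 12 of 12 fibroblast, 8 of 8 pericyte and 9 of 10 neuron and glia genes were higher. None was called, and 53.4% of all features were higher. Leukocyte (9 of 10), endothelial (8 of 10) and epithelial genes (8 of 11) were mostly higher too. The counts were 2 of 4 for Cajal, 5 of 9 for adipocyte and 0 of 4 for squamous genes. Without NC-miR day 4 replicate 2, an alternative chosen after seeing the data, the fibroblast, pericyte and neuron and glia counts were 11 of 12, 3 of 8 and 4 of 10. The part of these cell types in the members' values was not tested.

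**Figure D3:**
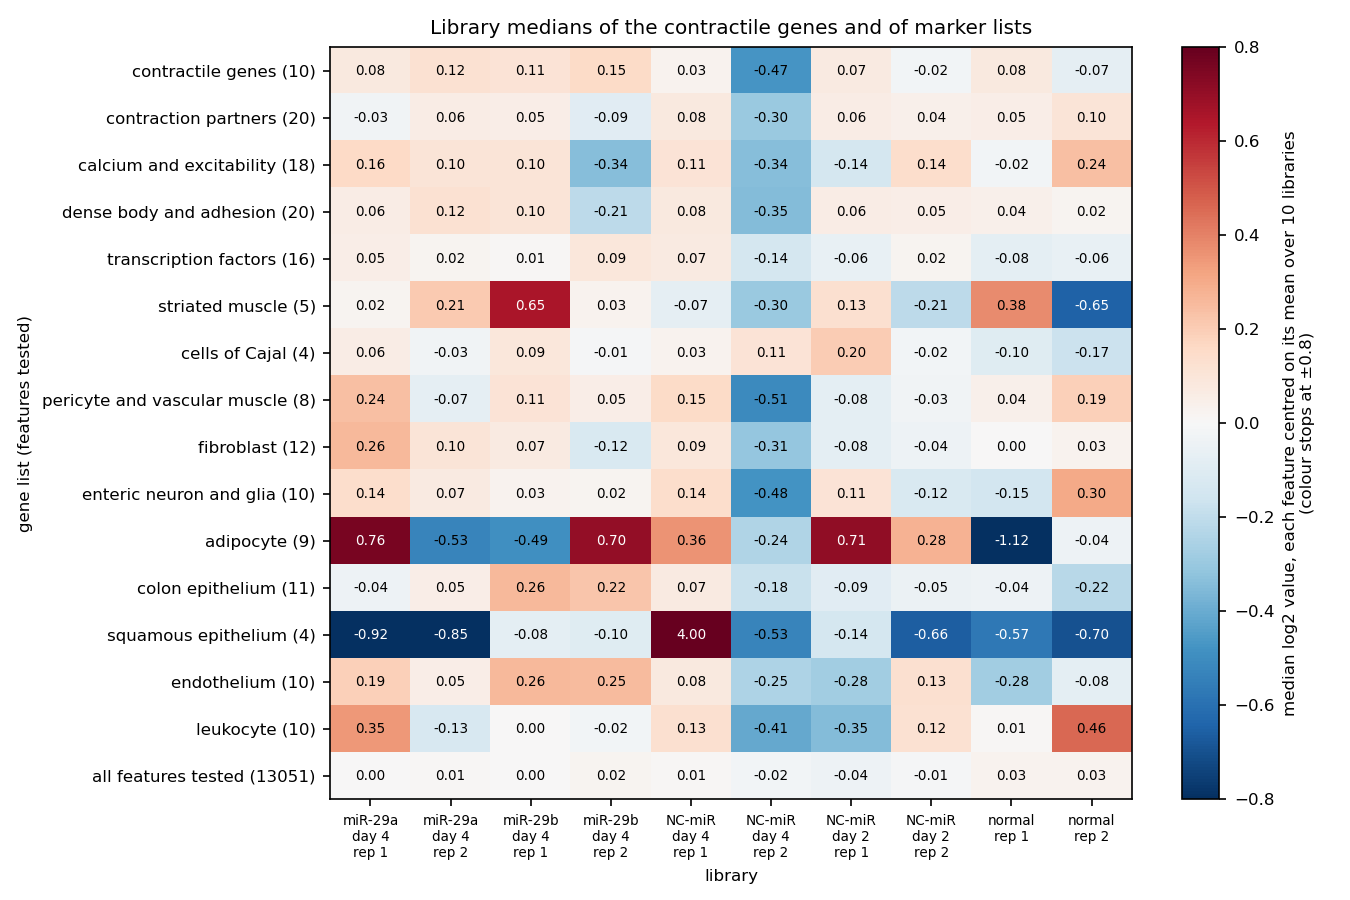
Median log2 value of each gene list (rows, with the number of features tested) in each library (columns), every feature centred on its mean over the 10 libraries and colours stopping at 0.8 in both directions. The contractile genes are lowest in NC-miR day 4 replicate 2 (-0.47), where pericyte (-0.51) and enteric neuron and glia genes (-0.48) are low too, and the squamous genes stand out in NC-miR day 4 replicate 1 (4.00).

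No member was told apart between the miR-29a and miR-29b groups. The median difference, miR-29a minus miR-29b, was -0.05, with 4 members higher and 6 lower, against 0.01 over all features. None of the 10 members passed by limma (0.0% of all features, with 970 features, 7.43%, and 0 members at an unadjusted p under 0.05). Without overlap, 1 member was higher and 3 were lower (20.3% and 19.7% of all features). The largest difference was that of Synpo2, which averaged 0.04 ± 0.04 in miR-29a day 4 and -0.42 ± 0.60 in miR-29b day 4 (SD, n = 2 each). The log2 difference of 0.46 ± 0.26 (SE) had a limma adjusted p of 0.695, a 95% interval from -0.13 to 1.05, and was 0.04 without miR-29b day 4 replicate 2. For Acta2 the 95% interval of the difference was -0.50 to 0.41, so differences of up to that size were not resolved.

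That library was unusual in its long transcripts. Synpo2 (7063 bases) and Myh11 (6450 bases), the members with the longest transcripts, had centred log2 values of -0.82 and -0.24 in miR-29b day 4 replicate 2. Lmod1 (3948 bases) stood at -0.01 there, and the other 7 members, of 1128 to 3028 bases, at 0.13 to 0.44. A transcript length was known for 11615 of the 13051 features tested (89.0%). Over these, the median centred value in this library was 0.18 for transcripts under 2000 bases (3361 features) and 0.03 from 2000 to 4000 bases (4793). It was -0.11 from 4000 to 6000 bases (2189) and -0.26 for 6000 bases or more (1272). In the other 9 libraries the longest class had medians of -0.09 to 0.10. The part of transcript length in the value of Synpo2 was not tested.

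**Figure D4:**
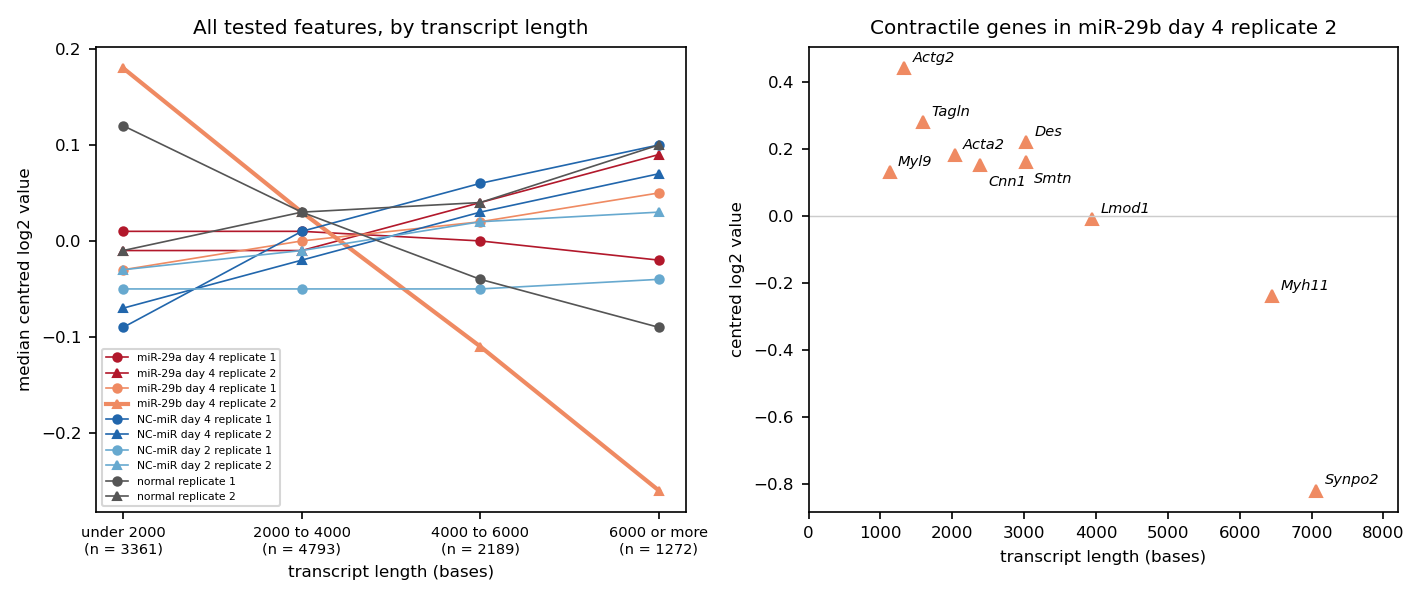
Left, the median centred log2 value (vertical axis) in 4 classes of transcript length (horizontal axis, with the number of features) for each library. Features without a known length are left out. Right, the centred log2 value of each contractile gene in miR-29b day 4 replicate 2 against its transcript length in bases. In that library the medians run from 0.18 in the shortest class to -0.26 in the longest, and Myh11 (-0.24) and Synpo2 (-0.82) are the lowest members.

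On day 4 with NC-miR, 8 of 10 members were lower than in normal mice (median log2 difference -0.21, against -0.03 over all features). None passed by limma, beside 0.383% of all features (50), and 1 member, Myl9, had an unadjusted p under 0.05 beside 15.2% of features. Myl9 averaged -0.25 ± 0.30 in NC-miR day 4 and 0.16 ± 0.22 in normal mice (SD, n = 2 each), a log2 difference of -0.41 ± 0.17 (SE) with a limma adjusted p of 0.308. Smtn (-0.47 ± 0.22) and Synpo2 (-0.51 ± 0.26) had differences of like size, with limma adjusted p of 0.357 and 0.386. Without NC-miR day 4 replicate 2 the differences were -0.20 for Myl9, -0.08 for Smtn and -0.31 for Synpo2, and without NC-miR day 4 replicate 1 they were -0.62, -0.85 and -0.71. These 3 members were lower and 0 higher without overlap of the libraries (27.8% and 20.4% of all features). Actg2 (0.52 ± 0.33) and Cnn1 (0.04 ± 0.22) were the members above normal, and without NC-miR day 4 replicate 2 the median of the 10 was 0.01.

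On day 2 with NC-miR, the comparison with normal mice called 159 of all features (1.22%) and 0 of the 10 members. The members' median difference was 0.11, with 6 higher and 4 lower, against -0.06 over all features. Without normal replicate 2 the members' median was also -0.06. In this comparison 0 members had an unadjusted p under 0.05 (1988 features, 15.2%). Lmod1 was 0.32 ± 0.18 and Myh11 0.28 ± 0.17 above normal (SE, n = 2 each), both without overlap, where 18.6% of all features were higher without overlap. Their limma adjusted p were 0.442 and 0.497. Smtn alone was lower without overlap (30.5% of all features), by a log2 difference of -0.06.

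Between the days, 9 of 10 members were lower in NC-miR day 4 than in NC-miR day 2 (median -0.31, against 0.02 over all features). None passed by limma, which called 2 features in all (0.0153%). Lmod1 averaged -0.27 ± 0.26 on day 4 and 0.27 ± 0.11 on day 2 (SD, n = 2 each), a log2 difference of -0.54 ± 0.18 (SE) with a limma adjusted p of 0.692. Myh11 differed by -0.41 ± 0.17 (limma adjusted p = 0.772), and these were the 2 members with an unadjusted p under 0.05, beside 6.41% of features. In all, 5 of 10 members were lower without overlap and 0 higher (16.1% and 19.8% of all features). Leaving out NC-miR day 4 replicate 2 brought the members' median to -0.05. Lmod1 and Myh11 were still -0.36 and -0.22 in that setting.

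Against normal mice, both miR-29 groups had 7 of 10 members higher. The median difference was 0.13 for miR-29a (0 of 10 called, 0.421% of all features) and 0.08 for miR-29b (0 of 10 called, 0.49% of all features), against -0.02 and -0.03 over all features. Actg2 averaged 0.56 ± 0.07 in miR-29b day 4 and -0.31 ± 0.75 in normal mice (SD, n = 2 each), the largest difference of any member (0.87 ± 0.33 SE, 1.83-fold, limma adjusted p = 0.269). Without normal replicate 2 it was 0.34. Synpo2 was lower in miR-29b day 4 than in normal mice by a log2 difference of -0.67 ± 0.26 (limma adjusted p = 0.272), and by -0.24 without miR-29b day 4 replicate 2. These were the 2 members with an unadjusted p under 0.05, beside 15.3% of features. Without overlap, miR-29b day 4 was higher for 4 members and lower for 1 (21.3% and 25.3% of all features), and miR-29a day 4 higher for 2 and lower for 2 (21.0% and 26.0%). These comparisons share the normal libraries with those of NC-miR.

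The members followed each other over libraries mostly through the library in which all were low. Over the 10 libraries the 45 pairs of members had a median Pearson r of 0.52 (from -0.40 for Actg2 with Synpo2 to 0.96 for Acta2 with Myl9), and 23 pairs exceeded 0.5. Over the 9 libraries without NC-miR day 4 replicate 2, an alternative chosen after seeing the data, the median was 0.03, with 13 pairs above 0.5 and 21 below 0. A core of genes stayed alike in both: Des and Cnn1 (0.95, and 0.91 without that library), Tagln and Des (0.92 and 0.87), and Acta2 and Tagln (0.92 and 0.78). Actg2 had an r of 0.79 with Cnn1 and 0.77 with Des over the 10 libraries, and 0.93 and 0.89 over the 9. Those 9 include normal replicate 2, where Actg2, Des, Cnn1 and Tagln were at -0.84, -0.37, -0.27 and -0.20. With the mean of the remaining members, Smtn had an r of 0.81 over the 10 libraries and -0.21 over the 9. The same coefficient was 0.84 and 0.33 for Myl9, 0.62 and 0.15 for Myh11, 0.50 and -0.29 for Lmod1, and 0.14 and -0.44 for Synpo2. The genes of a library share its depth, its tissue piece and its normalization, so these coefficients are descriptions.

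**Figure D5:**
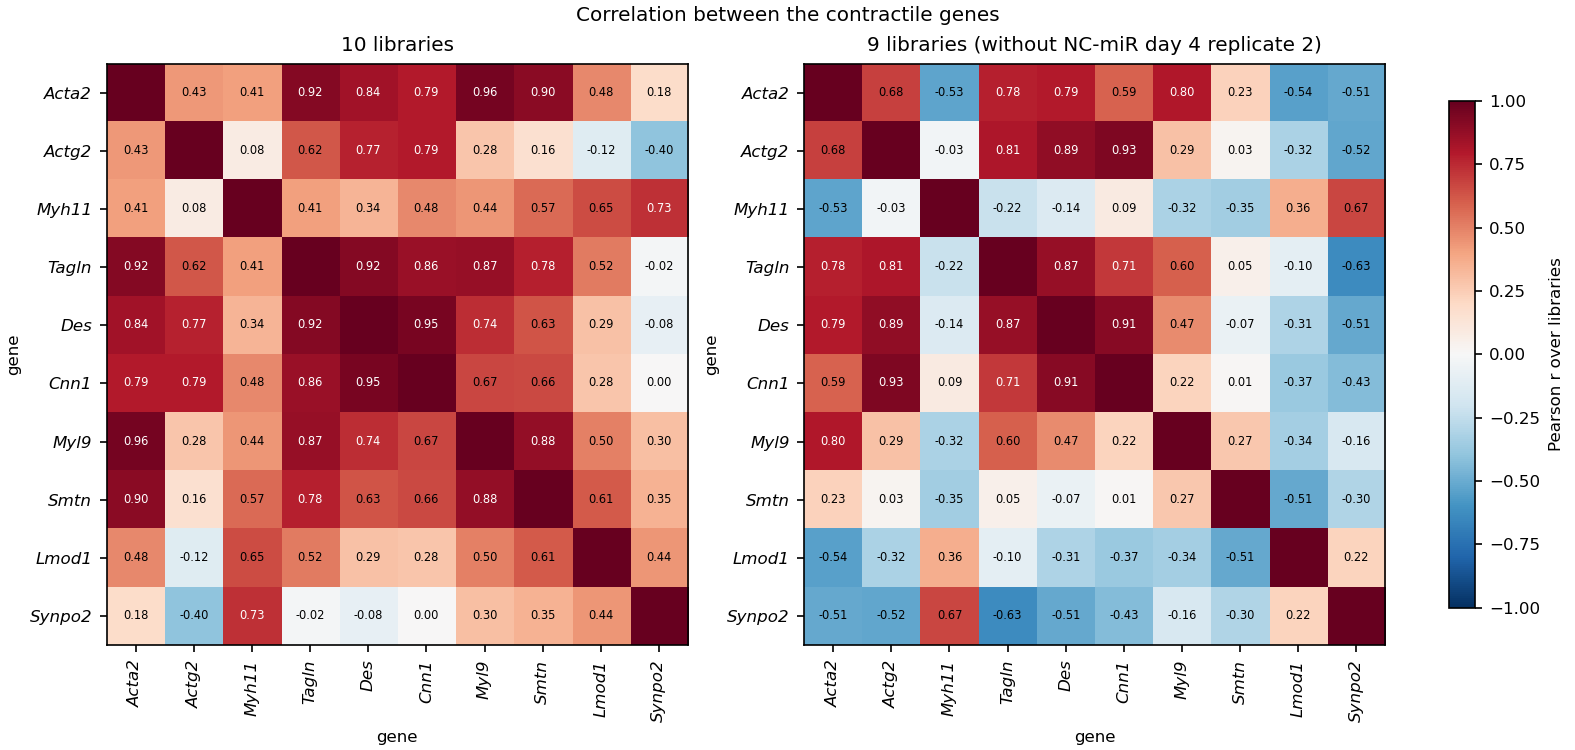
Pearson r between the log2 values of each pair of contractile genes over 10 libraries (left) and over the 9 libraries without NC-miR day 4 replicate 2 (right), with the genes on both axes and the diagonal unlabelled. The median over the 45 pairs is 0.52 on the left and 0.03 on the right, and Tagln, Des, Cnn1, Actg2 and Acta2 have an r of at least 0.59 with each other on the right, where Acta2 with Actg2 has 0.68 against 0.43 on the left.

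The 10 features most like the mean profile of the members over the 10 libraries were Csrp1 (r = 0.93), Gpr146 (0.92), Qsox1 (0.90), Ptgs1 (0.90), Lgi4 (0.90), Cd59a (0.89), Slc2a4 (0.88), Tmem90b (0.88), Rbpms2 (0.87) and Sgce (0.87). Csrp1 encodes a LIM protein bound to the actin cytoskeleton and Ptgs1 encodes cyclooxygenase 1. All 10 had their lowest value in NC-miR day 4 replicate 2, which picking them by a profile lowest in that library made likely. Over the other 9 libraries Ptgs1 had an r of 0.95 and Csrp1 one of 0.82, whereas Rbpms2 had 0.14.

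In the fit to all 10 libraries, other genes of the same machinery gave 0 calls by limma in any comparison. In that fit, 0 to 4 genes per list and comparison had an unadjusted p under 0.05. Over all features the 8 comparisons called 0.0% to 1.22%, and 6.41% to 15.3% had an unadjusted p under 0.05. Each of the lists named 20 genes. Those tested were 20 partners in contraction and in the phosphorylation of myosin and 18 genes of calcium handling and excitability. The others tested were 20 genes of dense bodies and adhesion and 16 transcription factors. In miR-29a day 4 against NC-miR day 4, 18 of 18 calcium and excitability genes (median 0.28) and 18 of 20 dense body and adhesion genes (median 0.22) were higher, beside 53.4% of all features (median 0.02). Without NC-miR day 4 replicate 2, an alternative chosen after seeing the data, 9 of 18 (median 0.00) and 11 of 20 (median 0.02) were higher. The same lists had medians of -0.04 (6 of 18 higher) and 0.01 (12 of 20 higher) in miR-29b day 4 against NC-miR day 4, beside 53.0% of all features higher. They were low in 1 miR-29b library: the median centred values in miR-29b day 4 were 0.10 in replicate 1 and -0.34 in replicate 2 for calcium and excitability genes, of which 8 of 18 were lowest in replicate 2, and 0.10 and -0.21 for dense body genes. Without miR-29b day 4 replicate 2, 14 of 18 (median 0.19) and 19 of 20 (median 0.21) were higher than in NC-miR day 4. Partners in contraction were higher in 15 of 20 and 11 of 20 cases, and transcription factors in 11 of 16 in both. Without NC-miR day 4 replicate 2 the partners were higher in 7 of 20 and 8 of 20 cases, the transcription factors in 6 of 16 and 7 of 16. In NC-miR day 4 replicate 2 the median centred values were -0.30 for partners and -0.34 for calcium and excitability genes. They were -0.35 for dense body genes and -0.14 for transcription factors. In miR-29b day 4 replicate 2, calcium and excitability genes had -0.36 for transcripts under 6000 bases and -0.38 for longer ones. The same medians were -0.21 and -0.27 for dense body genes, -0.02 and -0.43 for partners, and 0.11 and -0.38 for transcription factors. The longer class held 1 to 7 genes per list, and the part of transcript length was not tested.

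Ppp1r14a, which encodes an inhibitor of the myosin phosphatase, had the smallest p of these lists. Its log2 values were 0.05 and -0.11 in miR-29a day 4 libraries, 0.26 and 0.64 in miR-29b day 4 libraries, -0.32 and -0.61 in NC-miR day 4 libraries, -0.08 and -0.19 in NC-miR day 2 libraries, and 0.19 and 0.10 in normal libraries. Both NC-miR day 4 libraries were the lowest of the 10. The difference from NC-miR day 4 was 0.92 ± 0.17 in miR-29b day 4 (limma adjusted p = 0.3) and 0.44 ± 0.17 in miR-29a day 4 (limma adjusted p = 0.639; SE, n = 2 each), and 0.77 and 0.29 without NC-miR day 4 replicate 2. Mustn1, a small nuclear protein gene of the musculoskeletal system, had the same order, with 0.75 ± 0.17 in miR-29b day 4 (limma adjusted p = 0.335) and 0.51 ± 0.17 in miR-29a day 4 (limma adjusted p = 0.62) above NC-miR day 4, and 0.52 and 0.29 without NC-miR day 4 replicate 2. Myl6, the essential light chain of myosin, was 0.47 ± 0.15 above NC-miR day 4 in miR-29b day 4 (limma adjusted p = 0.346). Its difference was 0.37 without NC-miR day 4 replicate 2. Without miR-29b day 4 replicate 2, miR-29b differences from NC-miR day 4 were 0.72 for Ppp1r14a, 0.77 for Mustn1 and 0.32 for Myl6. Without miR-29b day 4 replicate 1 they were 1.11, 0.72 and 0.61.

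Ckb, the brain-type creatine kinase, was listed as a partner in contraction, but which cells of the colorectum gave its RNA was not tested. Ckb was lower in NC-miR day 4 than in normal mice by a log2 difference of -0.98 ± 0.24 (limma adjusted p = 0.127). It was -0.59 ± 0.24 in NC-miR day 2 (limma adjusted p = 0.298), -0.57 ± 0.24 in miR-29a day 4 (limma adjusted p = 0.445) and -0.44 ± 0.24 in miR-29b day 4 (limma adjusted p = 0.425) relative to normal. Its log2 values were -0.90 to 0.09 in the 8 libraries of mice given DSS, and 0.60 and 0.42 in normal libraries. In single comparisons with normal, 25.3% to 30.5% of all features were lower without overlap. The share over the 8 libraries together was not computed. Hspb6, a small heat shock protein linked to muscle relaxation, differed by -0.87 ± 0.27 (limma adjusted p = 0.195), and Casq2, which stores calcium, by -0.78 ± 0.27 (limma adjusted p = 0.235). In all 3 the lowest or second lowest library was NC-miR day 4 replicate 2, at -0.90, -0.81 and -0.57. Without it the differences of NC-miR day 4 from normal were -0.56 for Ckb, -0.45 for Hspb6 and -0.53 for Casq2. Without NC-miR day 4 replicate 1, which leaves replicate 2 alone in its group, they were -1.40, -1.29 and -1.03. Of the transcriptional regulators, Mkl1, a partner of SRF, had values of -0.55 and -0.01 in miR-29a day 4 libraries and of 0.33 and 0.35 in miR-29b day 4 libraries. The log2 difference, miR-29a minus miR-29b, was -0.62 ± 0.17 (limma adjusted p = 0.665), and -0.35 without miR-29a day 4 replicate 1. Srf itself ranged from -0.39 in NC-miR day 4 replicate 2 to 0.23 in NC-miR day 2 replicate 2.

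Promoters were searched for the CArG box because it is the element through which SRF acts on this set of genes. RefSeq promoters (GRCm38.p6, 250 bases before to 50 after the start of the gene) were available for 7 of the 10 members. On either strand, since the box reads alike on both, an exact CArG box was found in 1 of 7, Myl9, beside 1.63% of 32851 promoters. Allowing up to 1 mismatch in its central bases it was found in 2 of 7, Myl9 and Acta2, beside 9.98%. The Myl9 sequence is printed below up to the outermost annotated start (chr2:156775214-156775419, plus strand), with the boxes in capitals.
Myl9 promoter: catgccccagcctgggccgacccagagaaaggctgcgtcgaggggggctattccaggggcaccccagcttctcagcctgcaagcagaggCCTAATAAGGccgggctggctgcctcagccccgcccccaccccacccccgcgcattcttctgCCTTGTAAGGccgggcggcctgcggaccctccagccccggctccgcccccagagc
The exact box begins 161 bases and the box with 1 mismatch 99 bases before the RefSeq start. In Acta2 the boxes CCCTATATGG and CCTTGTTTGG, each with 1 mismatch, begin 84 and 34 bases before that start. A match of letters is a description and not evidence of binding.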

How the data were processed

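RNA was extracted from mouse colorectum with a miRNeasy kit and sequenced from TruSeq stranded mRNA libraries, per the labels' protocols. Per the submitters' processing notes, the tools were Cuffnorm 2.2.1, SAMtools 0.1.19, Bowtie2 2.2.3 and TopHat2 2.0.13, with mm10 as the build and no settings given. Although called FPKM per the file headers, the values that the authors deposited are on a log2 scale, each relative to its gene's own baseline, with low values raised to a floor of unstated height. Base 2 was read from the values: 99.5% of 6028 values fell on a grid of 6-digit numbers within 0.1 of a step, against 19.7% with base e and 21.8% with base 10.

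The deposited log2 values were used as they stand. A feature was tested if 1 or more groups had both of their libraries above the floor (13051 of 23284), with limma 3.58.1 in R 4.3.3. The 5 group means were fitted to all 10 libraries (5 residual and 3.26 prior degrees of freedom). All p are 2-sided and adjusted by Benjamini-Hochberg over all tested features, and calls had an adjusted p under 0.05. The median standard error was 0.18. Errors are limma standard errors or SDs, as stated. With no counts, depth is unknown and no counting interval can be given.

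The naming rule took all 10 contractile genes: their values are given in every library, and each comparison gives their counts and median with the members of smallest p or largest difference. From the 4 lists of related genes, the rule took called genes or the 3 of smallest p in each comparison. Only some of the genes so taken are named above. In NC-miR day 4 minus normal, Jph2 (-0.57 ± 0.17, limma adjusted p = 0.194) and Ppp1r14a (-0.61 ± 0.17, limma adjusted p = 0.172) were among those left out. Ckb in miR-29b day 4 minus normal was outside the rule and stands beside its other comparisons. From the marker lists it took up to 3 defining genes, and for likeness the 10 highest Pearson r. Srf was named in further comparisons after its values were seen. The members and lists were chosen with earlier results of these data known. The alternatives were a replicate block, no filter, re-centred libraries, a fit of only the libraries compared, and leaving out each library. Replicates of a group differed by a median of 0.151 to 0.224, so none was a copy. Sequences and gene models are from RefSeq and GENCODE with Python 3.11.15 and Biopython 1.88.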

Additional observations from a re-analysis of the deposited data

How the results depend on the processing

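No contractile gene passed the threshold in any comparison under any alternative run (lowest adjusted p 0.117, for Smtn in NC-miR day 4 minus normal without NC-miR day 4 replicate 1), and 1076 of 1120 values of single members kept their sign. The medians of the members changed by more than the spread between libraries (0.17) only when an NC-miR day 4 library was left out, with leave-one-out ranges of 0.07 to 0.57 for miR-29a minus NC-miR day 4, 0.11 to 0.60 for miR-29b minus NC-miR day 4, -0.41 to 0.01 for NC-miR day 4 minus normal and -0.54 to -0.05 for NC-miR day 4 minus NC-miR day 2. The value nearest 0, or past it, came in each case without replicate 2. The median for NC-miR day 2 minus normal, 0.11, was -0.06 without normal replicate 2. Where a library left out leaves 1 in its group, that one is assumed to vary like the others.

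The 33 of 80 member differences that changed sign when a library was left out had these ranges; the cause was not tested. In miR-29a day 4 minus NC-miR day 4 they were -0.15 to 0.35 for Actg2, -0.11 to 0.51 for Cnn1 and -0.03 to 0.74 for Smtn. In miR-29b day 4 minus NC-miR day 4 they were -0.02 to 0.60 for Cnn1, -0.11 to 0.27 for Myh11 and -0.58 to 0.27 for Synpo2. In miR-29a minus miR-29b they were -0.11 to 0.23 for Lmod1, -0.03 to 0.05 for Myl9 and -0.14 to 0.01 for Tagln. In miR-29a day 4 minus normal they were -0.11 to 0.19 for Acta2, -0.04 to 0.30 for Lmod1 and -0.16 to 0.14 for Myl9. In miR-29b day 4 minus normal they were -0.06 to 0.23 for Acta2, -0.05 to 0.19 for Lmod1, -0.20 to 0.10 for Myh11, -0.18 to 0.13 for Myl9 and -0.01 to 0.03 for Smtn. In NC-miR day 4 minus normal they were -0.01 to 1.05 for Actg2, -0.28 to 0.35 for Cnn1, -0.32 to 0.27 for Des, -0.32 to 0.06 for Myh11 and -0.42 to 0.03 for Tagln. In NC-miR day 2 minus normal they were -0.23 to 0.07 for Acta2, -0.11 to 0.96 for Actg2, -0.02 to 0.35 for Cnn1, -0.14 to 0.35 for Des, -0.25 to 0.05 for Myl9, -0.02 to 0.01 for Synpo2 and -0.04 to 0.27 for Tagln. In NC-miR day 4 minus NC-miR day 2 they were -0.54 to 0.06 for Acta2, -0.13 to 0.32 for Actg2, -0.44 to 0.18 for Cnn1 and -0.43 to 0.16 for Des. With re-centred libraries Myl9 in miR-29a day 4 minus normal was 0.01 and Synpo2 in NC-miR day 2 minus normal 0.04.

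Counts over all features depended more on the setting. With no filter, calls against normal were 28 for NC-miR day 2, 22 for NC-miR day 4, 14 for miR-29a and 29 for miR-29b, in place of 159, 50, 55 and 64, and 15 by the F test in place of 49. With only the libraries compared they were 26, 20, 24 and 13. Without normal replicate 2 they were 16, 6, 8 and 5, and without NC-miR day 2 replicate 2 the NC-miR day 2 comparisons called 273 against normal and 94 in NC-miR day 4 minus NC-miR day 2, in place of 2. The replicate numbers did not pair the libraries: same-numbered deviations from group means had correlations of -0.24 to 0.11 over 10 pairs of groups. With the replicate block, limma called 138, 30, 37 and 35 features against normal, 28 by the F test and 0 members.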
